A study of Mus musculus with 21 samples.

Results

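The Hox genes encode homeodomain transcription factors that set position along the head-to-tail axis of the embryo. They were taken as every gene of the expression table whose symbol is Hox, a cluster letter from a to d and a number, which gave 39 of 22520 genes. No filter on low values was applied, and all 39 enter the counts. The table holds RNA-seq of whole mouse liver as FPKM (fragments per kilobase of a gene, corrected for the number of mapped fragments). It has 12 columns, which are 4 genotypes in 3 conditions with 1 deposited value each. WT mice were Ezh2fl/fl and carried no Cre. E1KO mice were Ezh1-/-, with Ezh1 absent from all cells. E2KO mice were Ezh2fl/flAlb-Cre, in which the albumin promoter drives Cre in hepatocytes, so liver cells that never had Cre keep Ezh2. DKO mice were Ezh1-/-Ezh2fl/flAlb-Cre and combined both losses. All groups shared the mixed background 129SV::FVB/N::C57BL/6. Mice were untreated at 2 or 8 months, or were 3 months old and had received carbon tetrachloride (CCl4), a toxin activated in hepatocytes. CCl4 was given into the peritoneum at 2 ml/kg, 2 times per week for 2 weeks, with the livers taken 24 h after the last dose. No untreated column of 3 months is among the 12, so CCl4 and the month of age between these groups cannot be told apart.

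Either EZH1 or EZH2 can serve as the enzyme of the Polycomb complex PRC2, which writes the repressive mark H3K27me3 on histone H3. Hox clusters are among the best known PRC2 targets. In each cluster the genes stand in the order in which they act along the body axis, and genes of like number in different clusters, called paralogues, derive from 1 ancestral gene. Low numbers act towards the head (anterior) and high numbers towards the tail and the ends of the limbs (posterior). The adult liver is an anterior gut derivative, and posterior Hox genes are not known as part of its expression programme. Here paralogue groups 1 to 3 are called anterior (8 genes), 4 to 8 central (15 genes) and 9 to 13 posterior (16 genes).

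For the gene with the highest Hox value in the table (Hoxa10), another posterior gene that was high in DKO (Hoxd9) and the 1 Hox gene that was listed at 0 throughout (Hoxd12), the 250 bases before a RefSeq start site are given on build GRCm38.p6. Each reads 5′ to 3′ on the strand of its gene, with CG dinucleotides in capitals, since stretches rich in CG are a known feature of PRC2-bound promoters.
Hoxa10, chr6:52240855-52241104, strand -: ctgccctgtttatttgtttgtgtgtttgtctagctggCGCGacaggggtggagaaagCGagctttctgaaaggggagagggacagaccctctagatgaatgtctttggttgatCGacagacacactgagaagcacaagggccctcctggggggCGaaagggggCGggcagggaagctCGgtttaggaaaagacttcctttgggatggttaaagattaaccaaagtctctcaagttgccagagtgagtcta
Hoxd9, chr2:74697513-74697762, strand +: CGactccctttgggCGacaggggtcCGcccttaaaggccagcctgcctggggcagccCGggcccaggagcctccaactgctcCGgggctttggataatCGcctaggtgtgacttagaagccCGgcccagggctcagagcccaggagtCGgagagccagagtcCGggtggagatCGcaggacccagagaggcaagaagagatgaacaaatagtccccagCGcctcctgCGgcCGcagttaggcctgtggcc
Hoxd12, chr2:74674763-74675012, strand +: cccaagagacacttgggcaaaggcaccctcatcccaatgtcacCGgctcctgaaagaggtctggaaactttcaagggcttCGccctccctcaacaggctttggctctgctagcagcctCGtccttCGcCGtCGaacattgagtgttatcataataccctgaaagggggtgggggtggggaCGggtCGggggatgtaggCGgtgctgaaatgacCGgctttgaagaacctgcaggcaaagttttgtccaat
The printed Hoxa10 stretch held 7 CG, that of Hoxd9 held 13, and that of Hoxd12 held 10. RefSeq lists a second Hoxa10 start, whose preceding 250 bases held 20. RefSeq promoters (250 bases before to 50 after a start, 300 in all) were matched by symbol for 22 of the 39 genes, as 24 promoters. Their median was 14.5 CG, against 7 over all 32851 promoters that RefSeq supplied. The motif TATAAA, searched on both strands, was in 16.7% of the Hox promoters and in 13.6% of all. Promoters of the 6 matched Hox genes that reached 1 FPKM in DKO had a median of 20 CG (7 promoters, range 6 to 45). Those of the 5 matched genes that never passed 0.1 FPKM had a median of 19 (6 promoters, range 4 to 29). The ranges of the 2 sets overlapped, and no test was made.

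Across the columns, few Hox genes were above trace levels outside DKO, and many were in DKO. Hox genes above 0.1 FPKM numbered 8 in WT, 8 in E1KO, 5 in E2KO and 19 in DKO at 2 months. At 8 months they numbered 8 in WT, 11 in E1KO, 8 in E2KO and 25 in DKO. With CCl4 they numbered 9 in WT, 11 in E1KO, 10 in E2KO and 30 in DKO. Over all genes of the table, 57.8% to 60.9% were above 0.1 FPKM in the 9 columns that are not DKO, and 60.5%, 62.4% and 62.3% in the 2-month, 8-month and CCl4 columns of DKO. Above 1 FPKM there was no Hox gene in any of the 9 columns that are not DKO. In DKO there was 1 at 2 months, and 4 and 9 were counted at 8 months and after CCl4. Over the whole table the share of genes above 1 FPKM moved little, from 43.5% to 47.2% in the 9 other columns and 45.1%, 46.2% and 47.4% in the 2-month, 8-month and CCl4 columns of DKO. Depth is unknown for these columns, so a value of 0 is a listing and sets no upper limit.

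**Figure D1:**
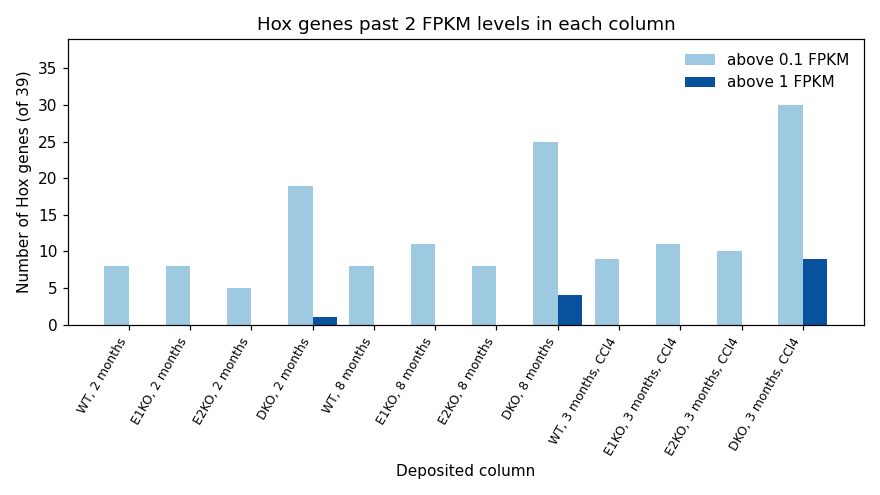
Number of Hox genes of 39 (vertical axis) above 0.1 FPKM (light bars) and above 1 FPKM (dark bars) in each of the 12 columns, with 1 column per group and no error bars. Dark bars appear in the DKO columns only, at 1, 4 and 9 genes.

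The sum over all 39 genes was likewise highest in DKO within each condition. It was 1.54, 2.31 and 1.5 FPKM in WT, E1KO and E2KO at 2 months, and 8.94 in DKO. At 8 months it was 2.45, 2.73 and 2.03, and 17.5 in DKO. With CCl4 it was 3.25, 4.54 and 3.22, and 37.4 in DKO. Every DKO sum was above every other sum, and WT and E2KO lay close together in each condition.

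The genes were grouped by where they passed 0.1 FPKM. Hoxa10, Hoxa11, Hoxa13, Hoxb13, Hoxc6, Hoxc9, Hoxc10 and Hoxd9 passed it in all 3 DKO columns and in no other column. These are 8 of the 26 Hox genes that stayed at or below 0.1 FPKM in the 9 other columns. Of the 7759 genes of any kind that low outside DKO, 0.864% did the same. A second set of 10 (Hoxa7, Hoxa9, Hoxc4, Hoxc5, Hoxc8, Hoxc13, Hoxd3, Hoxd4, Hoxd10 and Hoxd13) passed in 1 or 2 DKO columns and nowhere else. Another set of 12 (Hoxa2 to Hoxa5, Hoxb2 to Hoxb8 and Hoxd8) passed in DKO and elsewhere. Hoxa6, Hoxb1, Hoxb9, Hoxc11, Hoxc12, Hoxd1 and Hoxd11 never passed it, and Hoxd12 was listed at 0 in all 12 columns.

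**Figure D2:**
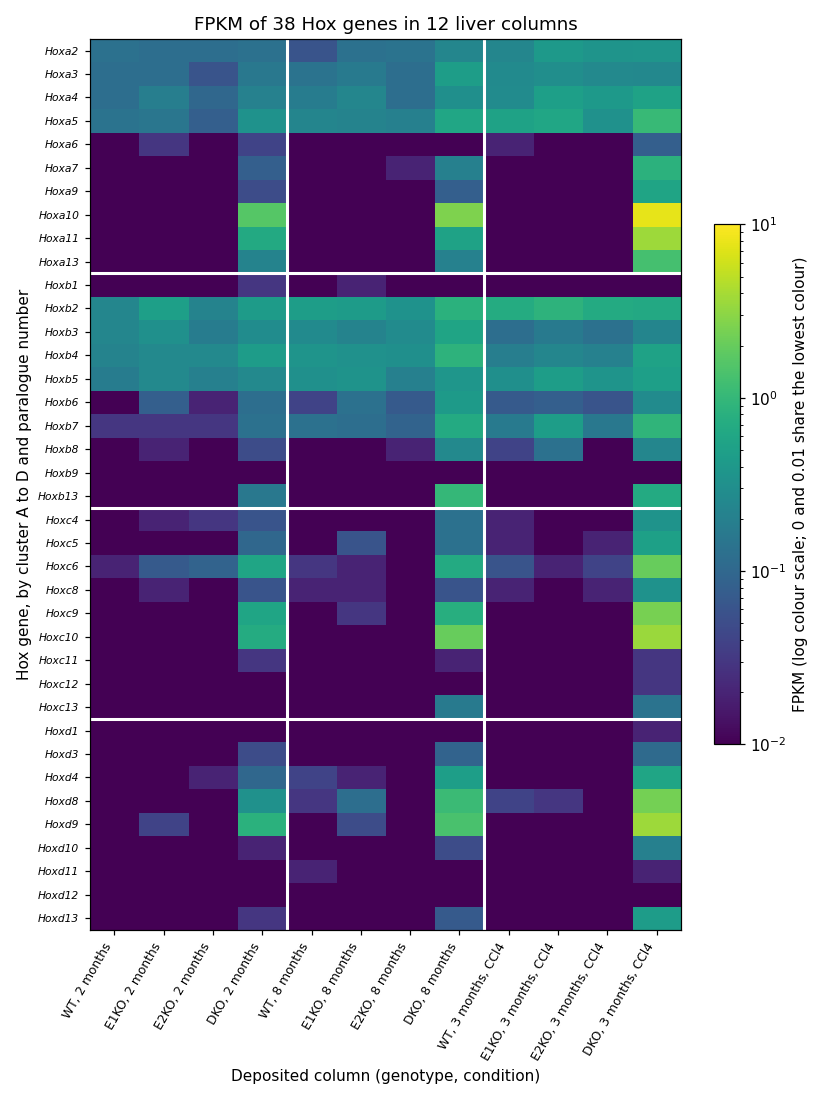
FPKM of 38 Hox genes (rows, by cluster and paralogue number) in the 12 columns, on a log colour scale where 0 and 0.01 share the lowest colour. The posterior rows are dark in the 9 columns that are not DKO, and Hoxa2 to Hoxa5 and Hoxb2 to Hoxb5 have colour in every column.

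The posterior genes made up most of what was added in DKO. Their summed level lay between 0.03 and 0.09 FPKM in the 9 other columns, and in DKO it was 4.90 at 2 months, 8.89 by 8 months and 24.5 after CCl4. None of the 16 passed 0.1 FPKM outside DKO, and 7 passed it in all 3 DKO columns. The central genes summed to 0.76 to 2.57 FPKM outside DKO and to 2.91, 6.31 and 11.2 in DKO. The anterior genes summed to 0.62 to 1.93 FPKM outside DKO and to 1.13, 2.29 and 1.73 in DKO, so that the anterior range of DKO overlapped that of the other columns.

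By rank, all 3 DKO values lay above all 9 others for 21 of the 39 Hox genes, against 1.82% of all genes. The 21 were 12 of the 16 posterior genes, 8 of the 15 central genes and 1 of the 8 anterior genes (Hoxd3). By cluster they were 5 of 11 in HoxA, 2 of 10 in HoxB, 8 of 9 in HoxC and 6 of 9 in HoxD. The rule asks for no size, so genes near the floor count too. Among them, the lowest DKO value was 0.01 FPKM for Hoxc13, 0.02 for Hoxc11 and 0.02 for Hoxd10. The highest values outside DKO were 0, 0 and 0.01. DKO was the highest of the 4 genotypes in all 3 conditions for 26 Hox genes, against 6.45% of all genes. WT, E1KO and E2KO were each the highest in all 3 conditions for 0 Hox genes, with 0.999%, 0.515% and 0.937% of all genes.

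Among paralogue groups, group 10 was the highest in DKO, with summed levels of 2.34, 4.66 and 11.5 FPKM in the 2-month, 8-month and CCl4 columns, and at most 0.02 in any other column. Hoxa10 and Hoxc10 supplied it, while Hoxd10 reached 0.20. Group 9 summed to 1.45, 2.23 and 6.64 in DKO, from Hoxd9 and Hoxc9, while Hoxb9 stayed at or below 0.01 in every column. Group 11 was high through Hoxa11 alone, with Hoxc11 at 0.03 and Hoxd11 at 0.02 at most. Group 12 summed to 0, 0 and 0.03. Group 13 summed to 0.42, 1.45 and 2.58, with all 4 members above every other column in all 3 DKO columns. For 2 of these the margin at 2 months was near the floor. Hoxc13 was 0.01 FPKM in DKO against 0 elsewhere, and Hoxd13 was 0.03 against at most 0.01. Paralogue number alone did not fix the level, since members of 1 group differed by cluster.

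**Figure D3:**
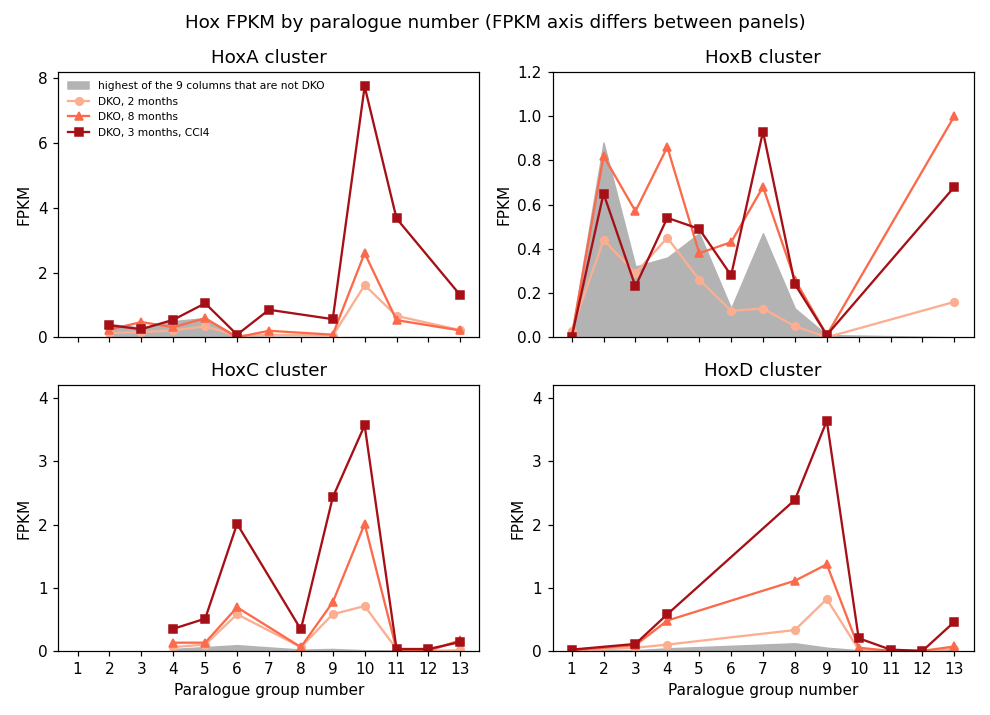
FPKM against paralogue number in the 4 clusters, with a separate FPKM axis per panel; the red lines are the 3 DKO columns and the grey area is the highest of the other 9 columns, joined between neighbouring genes. DKO peaks stand at Hoxa10, Hoxc10 and Hoxd9, and in HoxB the DKO points of Hoxb13 stand where the grey area is at 0.

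In HoxA, Hoxa10 gave the highest Hox value measured. It was 0.01, 0 and 0.01 FPKM in WT, E1KO and E2KO at 2 months and 1.61 in DKO. It was 0.01, 0 and 0.01 at 8 months against 2.60 in DKO, and 0.01, 0 and 0 with CCl4 against 7.75 in DKO. The DKO values stood more than 1 FPKM above all others with no overlap. In the fit over the 3 conditions it was 2.11 ± 0.33 (SE) higher in DKO than in WT on the log2(FPKM + 1) scale (limma, adjusted p = 0.0292). HOXA10 is known for patterning the lumbar axis, the limb and the uterus.

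Hoxa11, its neighbour and a limb forearm gene, was 0, 0.01, 0 and 0.66 FPKM in WT, E1KO, E2KO and DKO at 2 months. It was 0, 0, 0 and 0.53 at 8 months, and 0.01, 0, 0 and 3.67 with CCl4. DKO was above all others each time, and the CCl4 value was well above both other DKO values. The fitted difference was 1.18 ± 0.32 (SE), with a limma adjusted p of 0.114, which did not pass 0.05. Hoxa11as, an RNA on the opposite strand of Hoxa11, had 0.73, 0.86 and 4.84 FPKM in DKO and at most 0.01 elsewhere. The sources used here do not say whether counting used strand, so reads of Hoxa11 and Hoxa11as cannot be told apart.

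Hoxa13, which acts in the digits and the hind end of the gut, was 0 in all 9 other columns. Its DKO values were 0.22 FPKM at 2 months, 0.21 by 8 months and 1.30 after CCl4. The fitted difference was 0.59 ± 0.19 (SE), with a limma adjusted p of 0.162. Hoxa5, a lung and neck patterning gene, differed in kind from these because it was present everywhere. It was 0.14, 0.15, 0.08 and 0.34 FPKM in WT, E1KO, E2KO and DKO at 2 months. It was 0.23, 0.22, 0.20 and 0.59 at 8 months, and 0.53, 0.59, 0.33 and 1.05 with CCl4. DKO was the highest within each condition, but its 2-month value lay below the WT and E1KO values with CCl4. The fit put it 0.34 ± 0.06 (SE) higher in DKO than in WT (limma adjusted p = 0.0322).

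In HoxC, Hoxc10 was 0, 0.01, 0.01 and 0.71 FPKM in WT, E1KO, E2KO and DKO at 2 months. It was 0.01, 0, 0 and 2.01 at 8 months, and 0, 0.01, 0 and 3.57 with CCl4. The groups did not overlap, and the fitted difference from WT was 1.51 ± 0.26 (SE; limma adjusted p = 0.0356). HOXC10 is a marker of lumbar and hind limb identity. Hoxc9, which acts at thoracic levels, was 0 in WT in all 3 conditions and at most 0.03 in E1KO and E2KO. Its DKO values were 0.58 FPKM at 2 months, 0.77 by 8 months and 2.43 after CCl4. The fitted difference was 1.09 ± 0.22 (SE; limma adjusted p = 0.0537).

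Hoxc6, a thoracic gene of the central set, was 0.02, 0.07, 0.09 and 0.58 FPKM in WT, E1KO, E2KO and DKO at 2 months. It was 0.03, 0.02, 0 and 0.69 at 8 months, and 0.06, 0.02, 0.04 and 2.01 with CCl4. All DKO values were above all others. The fitted difference was 0.95 ± 0.19 (SE; limma adjusted p = 0.0516). Hoxc8, between Hoxc6 and Hoxc9, reached only 0.34 FPKM. On the posterior side of Hoxc10, Hoxc11 and Hoxc12 reached at most 0.03 and Hoxc13 at most 0.17.

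In HoxD, Hoxd9 was 0.01, 0.04, 0.01 and 0.82 FPKM in WT, E1KO, E2KO and DKO at 2 months. It was 0.01, 0.05, 0.01 and 1.37 at 8 months, and 0, 0.01, 0.01 and 3.64 with CCl4. No DKO value overlapped the others, and the fitted difference was 1.43 ± 0.26 (SE; limma adjusted p = 0.0416). HOXD9 acts in the forelimb and the thoracic to lumbar axis. Its neighbour Hoxd8, which acts in the trunk, was 0.01, 0.01, 0 and 0.33 FPKM in the same order of genotypes at 2 months. Its 8-month values were 0.03, 0.12, 0 and 1.11, and its CCl4 values 0.04, 0.03, 0.01 and 2.39. Again DKO was above all others. Its fitted difference was 1.05 ± 0.24 (SE; limma adjusted p = 0.0729). On the posterior side of these 2 genes the level ended at once, with Hoxd10 at 0.20 FPKM or less and Hoxd11 at 0.02 or less, while Hoxd13 reached 0.46 in DKO with CCl4.

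HoxB differed in its shape and its order of conditions. Hoxb13, which stands apart at the far end of HoxB and is known from the prostate and hindgut, was 0 in the 9 other columns. Its DKO values were 0.16 FPKM at 2 months, 1.00 by 8 months and 0.68 after CCl4, so that the 8-month value was the highest. Its fitted difference was 0.65 ± 0.15 (SE; limma adjusted p = 0.0664). The remaining 9 HoxB genes stayed under 1 FPKM in all columns. Hoxb4, a gene of the hindbrain and of blood progenitors, was 0.22, 0.26, 0.26 and 0.45 FPKM in WT, E1KO, E2KO and DKO at 2 months. Its 8-month values were 0.36, 0.33, 0.31 and 0.86, and its CCl4 values 0.19, 0.24, 0.21 and 0.54. DKO was above all others, and the gene was 0.36 ± 0.05 (SE) higher in DKO than in WT (limma adjusted p = 0.0263). Ezh1 lies on the same chromosome as HoxB, with 184 genes of the table between them, so for HoxB the loss of Ezh1 and strain DNA linked to its null allele cannot be told apart.

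**Figure D4:**
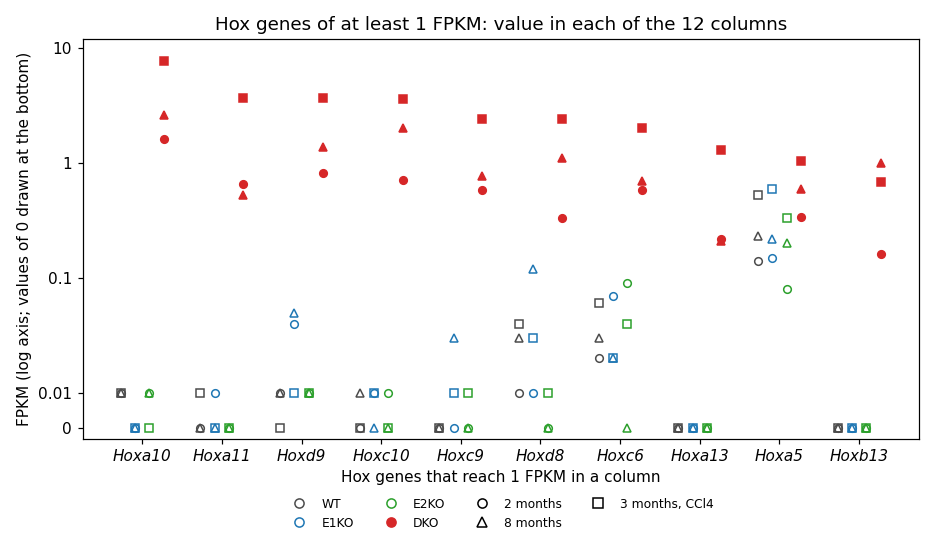
FPKM (log axis, with 0 drawn at the bottom) of the 10 Hox genes that reached 1 FPKM in a column; colour is the genotype, symbol shape the condition, and each point is 1 deposited column. Filled DKO points lie above the open points for every gene but Hoxa5, whose 2-month DKO value of 0.34 lies among them.

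The question of how DKO differed from each other genotype was tested with limma on log2(FPKM + 1), with additive terms for genotype and condition. Since a group has 1 value, the error term measures how far the 12 columns depart from additivity. Of the 39 Hox genes 38 were tested, since Hoxd12 was at 0. Against WT, 8 were higher in DKO and 0 lower: Hoxa5, Hoxa10, Hoxb4, Hoxb6, Hoxc10, Hoxc11, Hoxd3 and Hoxd9. Over all 20115 genes tested 1.61% were higher. The sign was positive for 37 of 38 Hox genes, 28 had an unadjusted p under 0.05, and the median difference was 0.21, against a median of 0 over all genes. The calls for Hoxc11 (0.04 ± 0.01 SE, adjusted p = 0.0212) and Hoxd3 (0.12 ± 0.02 SE, adjusted p = 0.0236) concern genes of at most 0.03 and 0.11 FPKM. These values are 3 and 11 of the 0.01 FPKM steps in which the table is written. Genes with a larger but less even difference over the conditions, such as Hoxa11 and Hoxd8, did not pass. Against E1KO 3 Hox genes were higher (Hoxa10, Hoxc11 and Hoxd3), with 0.507% of all genes, and against E2KO 7 were higher (Hoxa5, Hoxa10, Hoxb4, Hoxc10, Hoxc11, Hoxd3 and Hoxd9), with 1.74% of all genes. These 3 comparisons share the DKO columns.

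**Figure D5:**
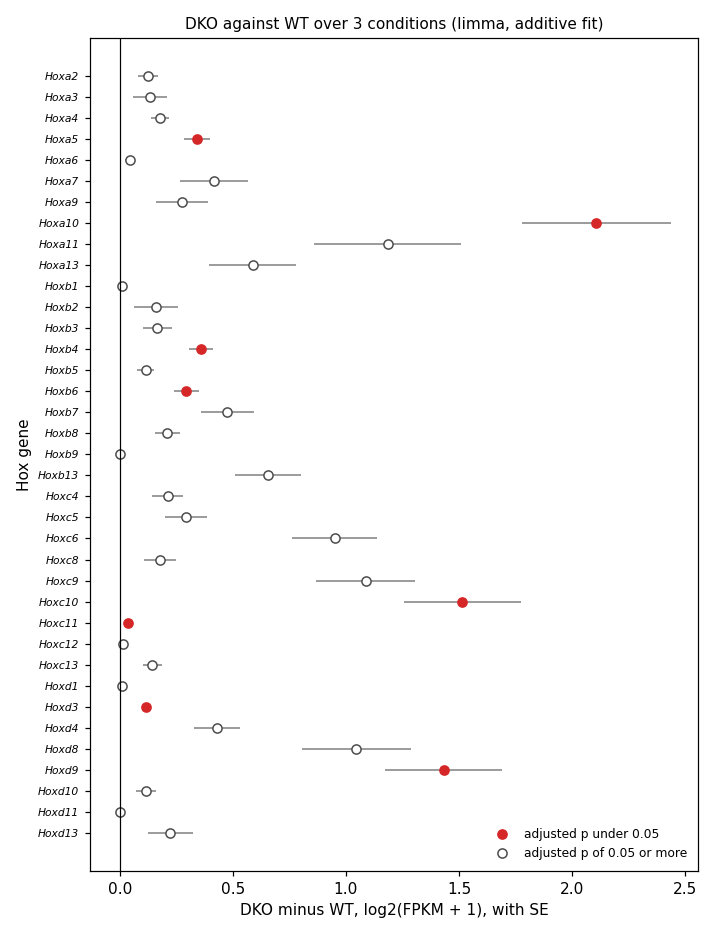
Difference of DKO from WT in log2(FPKM + 1) over the 3 conditions for 37 Hox genes, with its standard error from limma; filled points have an adjusted p under 0.05. The 8 filled points run from 0.04 for Hoxc11 to 2.11 for Hoxa10, and large open points such as Hoxa11 carry wide errors.

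The number called against WT depended on the conditions included, for Hox genes and for all genes alike. It was 4 without the 2-month columns, 0 without the 8-month columns (22 Hox genes at an unadjusted p under 0.05) and 3 without the CCl4 columns. It was 5 without the 8-month E1KO column, and 0 in a fit of the WT and DKO columns alone (20 at an unadjusted p under 0.05). Over all genes, the number higher in DKO went from 323 to 64, 23 and 34 without the 2-month, the 8-month and the CCl4 columns, to 226 without the 8-month E1KO column, and to 0 with WT and DKO alone. For E1KO and E2KO the counts without the 8-month columns were both 0, with 16 and 21 Hox genes at an unadjusted p under 0.05. Without the 8-month E1KO column the count against E1KO was 0, with 19 at an unadjusted p under 0.05.

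The single losses were then compared with WT in the same fit. In E1KO no Hox gene passed (limma, 0 of 38, with 2 at an unadjusted p under 0.05), beside 0.00994% of all genes. In E2KO no Hox gene passed either (0 of 38, with 0 at an unadjusted p under 0.05), beside 0% of all genes. The median Hox difference from WT was 0.00 in E1KO and 0.00 in E2KO on the log2(FPKM + 1) scale. The 2 genes at an unadjusted p under 0.05 in E1KO were Hoxa4, 0.13 ± 0.04 (SE), and Hoxb5, 0.10 ± 0.04 (SE), named after their values were seen.

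Within single conditions, with no test made, a difference of at least 1 in log2(FPKM + 1) between DKO and WT was counted. At 2 months Hoxa10 alone passed, with 1.08% of all genes. At 8 months Hoxa10, Hoxb13, Hoxc10, Hoxd8 and Hoxd9 passed, with 1.59% of all genes. With CCl4 Hoxa10, Hoxa11, Hoxa13, Hoxc6, Hoxc9, Hoxc10, Hoxd8 and Hoxd9 passed, with 1.67% of all genes. Among genes under 1 FPKM in all 9 other columns, 1, 5 and 9 Hox genes were at or above 1 FPKM in the 2-month, 8-month and CCl4 columns of DKO. The shares of all 10883 such genes were 0.662%, 1.51% and 1.86%. Hoxa5 was the ninth gene with CCl4, and Hoxb13 entered at 8 months only.

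How the DKO level moved with age and with CCl4 was asked next. From 2 to 8 months the DKO value of Hoxb13 was 6.25 times as high, that of Hoxa10 1.61 times, and that of Hoxa11 0.803 times. From 2 months to CCl4 the DKO ratios were 4.81 for Hoxa10, 5.56 for Hoxa11, 5.91 for Hoxa13, 5.03 for Hoxc10, 4.44 for Hoxd9 and 7.24 for Hoxd8. For Hoxa7, which reached 0.85 FPKM, the ratio was 10.6, and for Hoxa9, which reached 0.56, it was 11.2. Of the 10 genes of at least 1 FPKM, all were highest in DKO with CCl4 except Hoxb13.

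In a fit with DKO-by-condition terms, the DKO difference at 8 months exceeded that at 2 months for 9 of 38 Hox genes (limma, adjusted p under 0.05), beside 1.35% of all genes. With CCl4 it exceeded that at 2 months for 20 of 38, beside 1.22% of all genes. For Hoxa10 the difference was greater by 0.46 ± 0.04 (SE) at 8 months (limma adjusted p = 0.0051) and by 1.75 ± 0.04 (SE) with CCl4. For Hoxc10 it was greater by 0.82 ± 0.03 (SE) at 8 months and by 1.42 ± 0.03 (SE) with CCl4. In this fit each DKO value is matched exactly, so the spread comes from the 9 other columns, where most of these genes are near 0. The errors therefore hold no variation of DKO livers, and the calls rest on 1 DKO value per condition. The DKO column with CCl4, which carries the highest Hox values, also stood apart from the other CCl4 columns in cell markers. Its hepatocyte marker sum was 12217 FPKM against 6032 to 7224, but the single markers were not all higher. Hnf4a, Apob, Fgb, Cyp2e1, Ass1 and Pck1 were highest in DKO among the CCl4 columns. Cps1 was lowest in DKO (241.5 against 314.7 to 415.4). Tdo2 lay within the range of the others (587.8 against 510.8 to 762.4). Within that sum Cyp2e1, the hepatocyte enzyme that activates CCl4, was 3857 against 151.1 to 463.7. The stellate cell and fibroblast markers were split. Acta2, a marker of activated stellate cells, was 6.98 against 31.4 to 64.5, and Des and Pdgfrb were also lowest in DKO. Lrat, Dcn, Col3a1, Reln and Thy1 were highest in DKO, and Col1a1 and Col1a2 lay within the range of the others. The sum of that list was highest in DKO, at 292.5 against 214.5 to 271.5. The part of these markers in the Hox values was not tested.

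The level with CCl4 against 2 months was also compared over the genotypes. Of the 38 Hox genes tested, 7 were higher with CCl4 and 0 lower (limma), among them Hoxa2, Hoxa4, Hoxa5, Hoxb2, Hoxb5 and Hoxb7, while 25.3% of all genes were higher. The Hox share does not exceed that of all genes. Hoxa2 was 0.13, 0.12, 0.12 and 0.13 FPKM in WT, E1KO, E2KO and DKO at 2 months and 0.24, 0.41, 0.36 and 0.37 with CCl4, so its DKO value stood within the range of the others. Not all genes present outside DKO were higher with CCl4, since the difference was -0.11 ± 0.06 (SE; limma adjusted p = 0.149) for Hoxb3 and -0.01 ± 0.05 (SE; limma adjusted p = 0.929) for Hoxb4. Between 8 and 2 months 0 Hox genes passed (limma, 4 at an unadjusted p under 0.05), beside 1.36% of all genes higher.

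The other genes of the pathway were taken from lists. HOX proteins bind DNA with TALE cofactors (MEIS, PBX and PREP proteins), and 1 of 9 cofactor genes was higher in DKO than in WT and 0 lower. This was Meis1, at 0.63, 0.80, 0.60 and 1.63 FPKM in WT, E1KO, E2KO and DKO at 2 months, with 1.03 and 1.22 in DKO at 8 months and with CCl4 (0.49 ± 0.07 SE, limma adjusted p = 0.0236). Of the ParaHox genes and the Evx genes at cluster ends, 0 of 5 tested passed, and their summed level was at most 0.07 FPKM in any column. Of 16 genes for retinoic acid receptors and enzymes, which handle a known inducer of Hox genes, 1 was higher and 0 lower. This was Aldh1a2, which makes retinoic acid, at 1.77, 2.36 and 4.12 FPKM in DKO and 0.05 to 0.54 elsewhere (limma adjusted p = 0.00168). Aldh1a1, of the same list and named after its values were seen, was lowest in DKO within each condition (-0.99 ± 0.26 SE, limma adjusted p = 0.108). It was 272.7 FPKM against 336.4 to 808.5 at 2 months and 689.3 against 939.8 to 1271 at 8 months. With CCl4 it was 314.8 against 367.4 to 766.7. The sign was positive for 11 of the 16 genes. Of 12 PRC1 genes, Bmi1 (0.75 ± 0.14 SE, adjusted p = 0.0462) and Cbx6 (0.89 ± 0.14 SE, adjusted p = 0.0285) were higher in DKO. Of 11 trithorax and H3K27 demethylase genes 0 passed, and of 11 PRC2 genes Ezh1 alone passed, lower by design.

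At the edges of the clusters no gene passed. Of 20 listed neighbouring genes that were tested 0 passed between DKO and WT, and 8 of the 20 had a positive sign. Over all 20115 genes tested 1.61% were higher and 94 genes were lower. A count of 0 among so few genes therefore does not set the neighbours apart from genes at large. Those of the list with at least 1 FPKM in DKO were Skap2, Snx10, Hibadh and Tax1bp1 near HoxA, Snx11, Cbx1 and Snf8 near HoxB, Smug1, Cbx5, Calcoco1 and Atp5g2 near HoxC, and Mtx2, Atp5g3, Atf2 and Hnrnpa3 near HoxD. Near HoxA, Skap2 was 13.18, 8.43, 11.51 and 10.45 FPKM in WT, E1KO, E2KO and DKO at 2 months, and near HoxD, Mtx2 was 46.62, 51.08, 49.98 and 48.77. DKO lay within the range of the other genotypes for both at 2 months. With CCl4, Skap2 was 19.36 FPKM in DKO, above the 13.79, 16.27 and 14.87 of WT, E1KO and E2KO. Of listed neighbours that stayed low, 2 followed DKO closely and are named after their values were seen. Igf2bp1, near HoxB, was 0 in the 9 other columns and 0.07, 0.11 and 0.22 FPKM in DKO (0.18 ± 0.04 SE, limma adjusted p = 0.0533). Skap1, on the other side of HoxB, was the highest in DKO in every condition, at 0.22, 0.29 and 0.25 FPKM (0.18 ± 0.04 SE, limma adjusted p = 0.0506). Over a set of 32 flanking genes taken by position, differences ran from -0.44 to 0.35 with 0 called. The highest was that of Jazf1, near HoxA (0.35 ± 0.14 SE, limma adjusted p = 0.240), named after its values were seen. Jazf1 was highest in DKO at 2 and 8 months, at 0.94 and 0.67 FPKM, and lowest in DKO with CCl4, at 0.97.

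Inside the clusters lie genes for miRNAs, and 2 of them had values in DKO alone. Mir196a-1, in HoxB, was 5.99 FPKM in DKO at 8 months and 3.96 in DKO with CCl4, and 0 in the other columns, DKO at 2 months included. Mir196b, in HoxA, was 9.86 in DKO with CCl4 and 0 elsewhere. Mir10a, also in HoxB, was 3.15 in WT at 2 months and 0 in the other 11 columns. In FPKM a very short gene gets a high value from few fragments, and the library was not made for small RNA, so these values are not levels of the mature miRNA. In the noncoding list 0 of 5 tested genes passed between DKO and WT. The mature forms of miR-196a and miR-196b are shown because both share 1 seed (bases 2 to 8, in capitals).
mmu-miR-196a-5p: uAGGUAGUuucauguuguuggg
mmu-miR-196b-5p: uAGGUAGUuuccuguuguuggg
They differ by A12C, counted from 1 at the 5′ end, with the base of miR-196a first.

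Some facts of the whole series bear on these values. Ezh1 was 2.04 to 2.38 FPKM in WT and 0.06 to 0.27 in DKO, and it was 0.88 in the 8-month E1KO column against 0.07 and 0.20 in the other E1KO columns. That column also had a summed level of skeletal muscle markers of 363.6 FPKM, against 1.25 to 1.92 in the other 11. Its posterior Hox sum was 0.09 and it held the highest Hoxd8 value outside DKO (0.12). Ezh2 in DKO was 0.74, 1.27 and 2.51 FPKM against 1.11, 0.91 and 5.68 in WT. The sources used here do not say which exons are floxed, so a whole-gene value does not check the deletion. Hepatocyte markers were abundant in every column, at a summed level of 6032 to 14779 FPKM. DKO had the lowest sum at 2 months (12018 against 14118.5 to 14779) and at 8 months (9532 against 11218 to 14149). With CCl4 it had the highest (12217 against 6032 to 7224). None of the 8 markers was called between DKO and WT, and their part in the Hox values was not tested. In whole tissue, more cells of a type and more RNA per cell cannot be told apart.

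Markers of other cells moved with DKO in part. The 10 markers of stellate cells and fibroblasts, cells that keep positional Hox codes in many organs, had 0 of 10 called, 9 of 10 positive and a median difference of 0.48 between DKO and WT. DKO had their highest sum within each condition. It was 126.5 FPKM against 76.2 to 103.9 at 2 months, 198.1 against 86.5 to 113.3 at 8 months, and 292.5 against 214.5 to 271.5 with CCl4. The E1KO column with CCl4 had a sum of 271.5, of unlike make-up to that of DKO with CCl4. Acta2 was 64.5 FPKM there against 6.98 in DKO, and Dcn was 94.1 against 176.2. The 8 cholangiocyte markers had 1 called (Cldn7), and DKO had the highest sum within each condition. It was 93.5 FPKM against 47.6 to 67.2 at 2 months, 308.3 against 32.2 to 47.5 at 8 months, and 700.5 against 323.0 to 654.4 with CCl4. The 8 lymphocyte markers had 1 called (Nkg7), with sums of 4.46 to 8.52 in DKO and 2.17 to 5.50 elsewhere. The 9 kidney markers summed to 0.21 FPKM or less in all columns, with Slc12a1 and Kap among those at 0. Of 7 intestinal markers 0 were called, with Cdx1 at 0 and Cdx2 at most 0.01 FPKM. Vil1 was 0.28, 1.21 and 0.87 FPKM in DKO against 0.02 to 0.19 in the other columns (limma adjusted p = 0.0605), and Fabp2 was 150.2 to 437.6 throughout. The part of stellate, cholangiocyte, lymphocyte and intestinal markers in the Hox values was not tested.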

How the data were processed

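RNA-seq of whole liver was used in 12 columns, 1 for each of 4 genotypes in 3 conditions. The authors deposited FPKM values to 2 decimals. Per the labels' titles a column stands for 3 replicates, or 2 at 8 months. The sources used here do not say how these were combined. No spread between animals can be had, and p-values measure only the departure of the columns from additivity. The submitters' processing notes name CASAVA, TopHat, Cufflinks, BWA, SICER, HOMER and build mm9, without versions or roles. Column totals were 531761 to 674119 FPKM, and depth is unknown. The 9 ChIP-seq samples are not analysed here.

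From the deposited FPKM, log2(FPKM + 1) was computed and fitted with limma 3.58.1 (R 4.3.3; eBayes with trend) with genotype and condition terms over the 20115 genes above 0 in at least 1 column. The additive fit had 6 residual degrees of freedom, and the fit with DKO-by-condition terms had 4. P-values are two-sided and adjusted by Benjamini-Hochberg over all genes tested, at a threshold of 0.05. On simulated data of 20115 genes made for DKO against WT, with 200 changed, 76% of changes of log2 size 1 and 93% of size 2 were recovered, with 5.59% false calls among those made. The changed genes were drawn from those with a mean log2(FPKM + 1) above 1 and were shifted evenly in every DKO column. No Hox gene has so high a mean, so these rates do not apply to the Hox genes. Alternatives were another pseudocount, 2 filters on low values, a common upper quartile, no trend, each condition or the 8-month E1KO column left out, WT and DKO alone, and other FPKM thresholds.

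The members, lists and tests were chosen with earlier results of these data known. Genes were named by a rule: members of at least 1 FPKM in any column value by value, others (1 Hox gene is not reported here by itself) by ranges, counts and, for those called, by name; from the lists, genes called between DKO and WT; of genes in or next to the clusters, those of at least 1 FPKM in DKO. Hox genes overlap in 6 RefSeq pairs: Hoxa3 with Hoxa4, Hoxa5 and Hoxa6; Hoxb3 with Hoxb4; Hoxd3 with Hoxd4; Hoxd10 with Hoxd11. The sources used here do not say how fragments of such pairs were shared, so their levels are uncertain.

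The lists, with the number called higher or lower in DKO against WT, were as follows. TALE cofactors, PRC1, PRC2, retinoic acid, cholangiocyte and lymphocyte lists had the calls named in the report. ParaHox and Evx, cluster neighbours, cluster noncoding RNAs, trithorax, hepatocyte, stellate, mesothelial, macrophage, haematopoietic, endothelial, muscle, kidney, intestinal, adipocyte and adrenal lists had 0 called.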

Additional observations from a re-analysis of the deposited data

Results flagged for a closer look

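In the fit with DKO-by-condition terms, the DKO difference from the other genotypes at 8 months differed from that at 2 months for 9 Hox genes, and that with CCl4 differed for 20. All values are in log2(FPKM + 1). At 8 months the difference was greater by 0.82 for Hoxc10, 0.79 for Hoxb13, 0.61 for Hoxd8, 0.46 for Hoxa10, 0.41 for Hoxd4, 0.38 for Hoxd9, 0.29 for Hoxa3, 0.21 for Hoxc13 and 0.15 for Hoxa7. With CCl4 it was greater by 1.75 for Hoxa10, 1.49 for Hoxa11, 1.42 for Hoxc10, 1.37 for Hoxd9, 1.32 for Hoxd8, 1.11 for Hoxc9, 0.96 for Hoxc6 and 0.91 for Hoxa13. For genes under 1 FPKM it was greater by 0.78 for Hoxa7, 0.57 for Hoxa9, 0.53 for Hoxb13, 0.53 for Hoxd4, 0.50 for Hoxd13, 0.43 for Hoxc5, 0.36 for Hoxc4, 0.33 for Hoxc8, 0.23 for Hoxd10, 0.17 for Hoxc13, 0.0850 for Hoxd3 and 0.0426 for Hoxc12. Each rests on 1 DKO value per condition.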

How the results depend on the processing

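Each group has 1 value, so no replicate could be left out. No paired analysis was possible because the replicates of a group stand in 1 column, so no replicate numbers can be matched. Condition is a term in every fit, so genotypes are compared within conditions. With a pseudocount of 0.1, which gives low genes more weight, 17 Hox genes passed against WT, 13 against E1KO and 17 against E2KO, and 3 differed at 8 months from 2 months. With it, 11, 21 and 23 Hox genes were at least 1 log2 unit above WT at 2 months, 8 months and with CCl4. With at least 1 FPKM in 2 columns required, 4 Hox genes were left, all through their DKO columns, so that their counts support nothing. Of these 3 passed against WT and 3 against E2KO, 0 with CCl4 (0 at an unadjusted p under 0.05), 0 for DKO at 8 months (4 at an unadjusted p under 0.05) and 4 for DKO with CCl4. With 0.1 FPKM required, 4 of 26 differed at 8 months and 13 with CCl4. Many of the 26 were under 0.1 FPKM in every column that is not DKO and were kept through DKO alone. They were Hoxa7, Hoxa10, Hoxa11, Hoxa13, Hoxb13, Hoxc4, Hoxc5, Hoxc6, Hoxc9, Hoxc10, Hoxc13, Hoxd4 and Hoxd9. These counts therefore support nothing either. With a common upper quartile 6 passed against E1KO. Without the trend 4 passed against WT and 0 against E1KO (22 at an unadjusted p under 0.05). Against WT the count was 4 without 2 months, 0 without 8 months, 3 without CCl4, 5 without the 8-month E1KO column and 0 from WT and DKO alone. Against E2KO it was 4, 0 and 4 without 2 months, 8 months and CCl4. Against E1KO it was 0 without 8 months and 0 without the 8-month E1KO column. Above 0.5 in place of 1 FPKM lay 6, 13 and 18 Hox genes in the 2-month, 8-month and CCl4 columns of DKO. The other 65 counts stayed within 1.5 times. The DKO difference from WT kept its sign in every setting for the 10 Hox genes of at least 1 FPKM, and other genes and contrasts were not followed singly. The cause of each change was not tested, except that filters leave fewer genes.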
